A study of Mus musculus with 20 samples.

Results

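The genes described here are 77 intergenic long non-coding RNA (lncRNA) genes that were expressed at a moderate level in mouse liver. They were chosen from 13343 intergenic lncRNAs, and from 36128 genes in all, by their mean FPKM over 20 livers, which had to be 0.5 or more and under 1. FPKM is the number of sequenced fragments of a gene, scaled to the length of its exons and to the size of the library. Genes on chromosomes X and Y were left out by the rule, and 0 of them lay within these bounds. The level of the 77 genes is therefore a property they were chosen for, and it is described below without a test. Each gene is named by the number that closes its id in the expression table, so that the gene listed as ncRNA_inter_chr1_1015 is called lnc1015. The table gives the chromosome of a lncRNA gene and no further position.

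The livers came from males and females of B6 (C57BL/6J), a common laboratory strain, and CAST (CAST/EiJ), which descends from wild mice of another subspecies, at 8 weeks of age. There were 5 mice in each of the 4 groups, B6 male, B6 female, CAST male and CAST female, with 1 polyA-selected RNA library per mouse. The mice came from 1 supplier, and the labels name no treatment and no engineered allele. Whole liver RNA was measured, which holds the RNA of every cell type of the organ.

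LncRNAs are transcripts that are spliced and polyadenylated much as messenger RNAs are, but code for no protein. An intergenic lncRNA is transcribed from its own gene between protein-coding genes. Such RNAs are mostly made at lower levels than messenger RNAs and often in few tissues, many stay in the nucleus bound to chromatin, and some change the transcription of other genes. In mouse liver, lncRNA genes are known among the genes whose expression differs between the sexes, a difference that depends largely on the male and female patterns of pituitary growth hormone secretion. The roles of the single genes named below are not given in the sources used here.

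The libraries held 7969482 to 35328573 counted reads. The libraries were grouped by their titles, and in 10 of them, those of 5 B6 female and 5 CAST male livers, a separate strain entry gives the opposite strain. The nicotinamide nucleotide transhydrogenase gene *Nnt*, part of which is deleted in C57BL/6J, was at 3.96 to 7.30 FPKM in the 10 livers titled B6 and at 8.82 to 16.5 FPKM in the 10 titled CAST. The Y-linked genes *Ddx3y*, *Kdm5d*, *Eif2s3y* and *Uty* were listed at 0 in all 20 livers and gave no check of the sexes. The albumin gene *Alb*, a hepatocyte marker, was at 12150.1 to 24101 FPKM. No pair of libraries of a group agreed within sampling noise.

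The 77 genes had mean levels of 0.504 to 0.982 FPKM with a median of 0.643 FPKM. The genes nearest to the bounds were lnc14182 at 0.504 FPKM and lnc4022 at 0.511 FPKM inside the lower bound, and lnc10517 and lnc2066, both at 0.498 FPKM, outside it. At the upper bound, lnc7696 at 0.982 FPKM and lnc7881 at 0.979 FPKM were inside, and lnc8173 at 1.003 FPKM and lnc646 at 1.006 FPKM were outside. The genes lay on 19 chromosomes, with 10 on chromosome 1, 8 on chromosome 6, 7 each on chromosomes 5 and 10, and 6 or fewer on each of the others. Their exonic length, as implied by counts and FPKM together, ran from 550 nt for lnc5104 to 93241 nt for lnc4022, with a median of 6155 nt. Since FPKM is scaled to length, the same level rested on very different numbers of reads, from 6.05 reads per liver on average for lnc11094 to 843 for lnc4022, with a median of 62.6. At least 10 reads per liver on average were counted for 70 of the 77 genes, and 63 had a read in all 20 livers.

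A mean over 20 livers hid large differences between groups. For 6 of the 77 genes, each of the 4 group means lay between 0.5 and 1 FPKM. For 26 genes the mean of the 10 B6 livers was under 0.5 FPKM and for 29 the mean of the 10 CAST livers was, so that these genes reached the lower bound through the other strain. The other 22 genes had a mean of 0.5 FPKM or more in both strains. A group mean of 1 FPKM or more was found for 47 genes, and a group mean under 0.1 FPKM for 21. The coefficient of variation (SD over mean) over the 20 livers ran from 0.172 to 1.47 with a median of 0.620, whereas within groups it was 0.117 to 1.06 with a median of 0.328. Summed over the 77 genes, the level was 54.2 to 66.5 FPKM in B6 males, 46.5 to 55.1 in B6 females, 44.8 to 55.8 in CAST males and 46.3 to 50.1 in CAST females, so that B6 males lay above CAST females and the ranges of all other pairs of groups overlapped. The share of counted reads, which is not scaled to gene length, was 0.0662% to 0.0977% in B6 males and 0.0557% to 0.0779% in B6 females. It was 0.0384% to 0.0494% in CAST males and 0.0367% to 0.0421% in CAST females. By this share every B6 liver lay above every CAST liver.

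**Figure D1:**
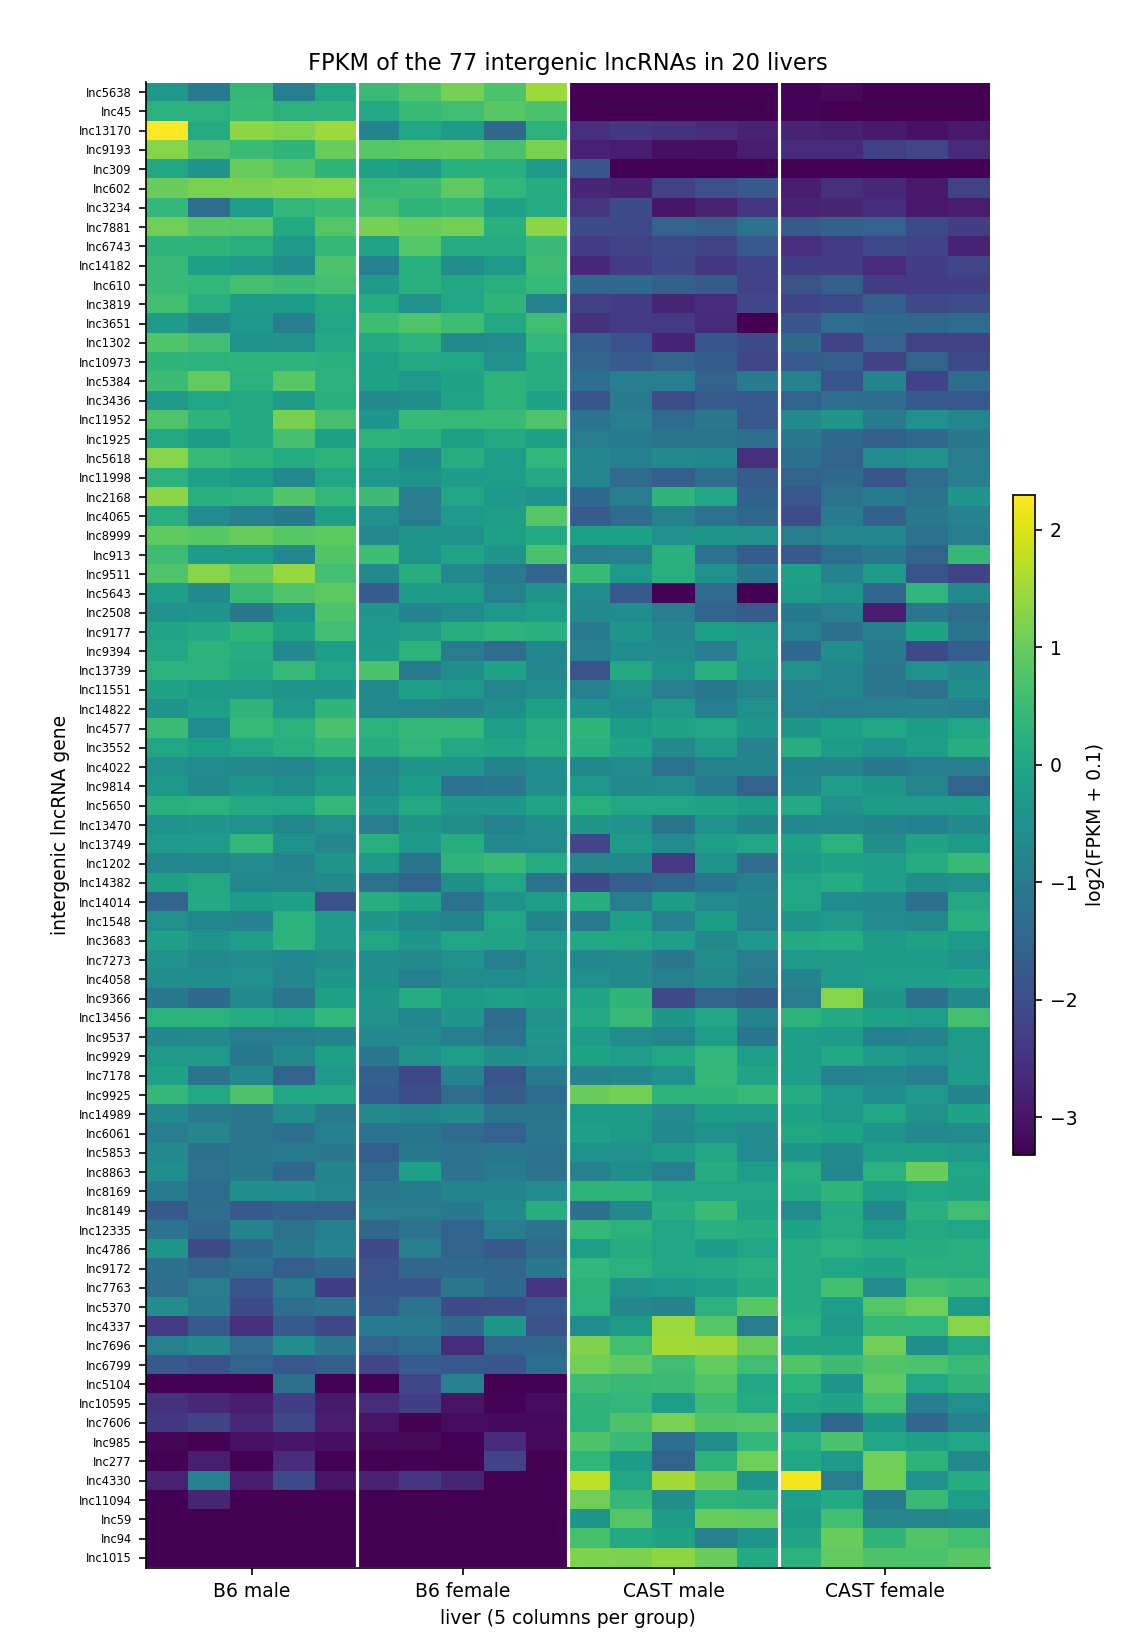
Level of each of the 77 intergenic lncRNAs (rows) in each of 20 livers (columns, 5 per group), as log2(FPKM + 0.1) on the colour scale. Rows are ordered by the ratio of the mean FPKM of B6 and CAST. The genes at the top are near 0 in the 10 CAST livers and those at the bottom in the 10 B6 livers, with lnc1015, lnc94 and lnc59 at 0 in every B6 liver.

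The comparison of strains within a sex asked which of these genes differ between livers of distant genetic background. Most of them did. In males 44 of the 74 genes tested were called, with 25 higher in B6 and 19 higher in CAST, and in females 43 of 74 were called, with 20 higher in B6 and 23 higher in CAST. A gene was called where its fold exceeded 2 and its adjusted p was under 0.05 (edgeR, quasi-likelihood F test, Benjamini-Hochberg correction over all genes tested). The share called was 59.5% of the genes tested in males and 58.1% in females, against 23.8% and 24.4% of all 25779 genes. By direction, 13.4% of all genes were called higher in B6 males and 10.4% in CAST males, and 13.9% in B6 females and 10.4% in CAST females. The share of the 74 genes is a description and no support for more strain differences among them, because the mean over both strains chose them, and the 26 and 29 genes under 0.5 FPKM in B6 and in CAST met the lower bound only through the strain in which they were higher. The calls included 38 genes in both sexes, all in 1 direction, 20 higher in B6 and 18 higher in CAST, where 18.2% of all genes were called in both sexes in 1 direction. Another 6 were called in males alone and 5 in females alone. The median absolute log2 difference was 1.34 in males and 1.28 in females, against 0.74 and 0.75 over all genes.

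The FPKM of single livers, whose mean chose the genes, is given as a description. For 38 of the 77 genes the FPKM of the 10 B6 livers did not overlap that of the 10 CAST livers. In 20 of these genes the higher values were in B6. The 38 genes include lnc45, lnc309 and lnc11094, which the joint fit of all 4 groups left out. Of the 25779 genes of that fit, 17.1% had no overlap. Within males 47 of the 77 genes had no overlap and within females 46, where 28.2% of the genes of that fit had none in each sex. The strain of a liver and the genome its reads were mapped to cannot be told apart, because the reads of each strain were mapped to a genome of that strain. The authors also state that the data used to find and annotate liver lncRNA genes held B6 but not CAST mice. They propose this as a likely reason for their fewer CAST-specific sex-biased lncRNAs. Its part in the direction of the strain differences was not tested here.

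**Figure D2:**
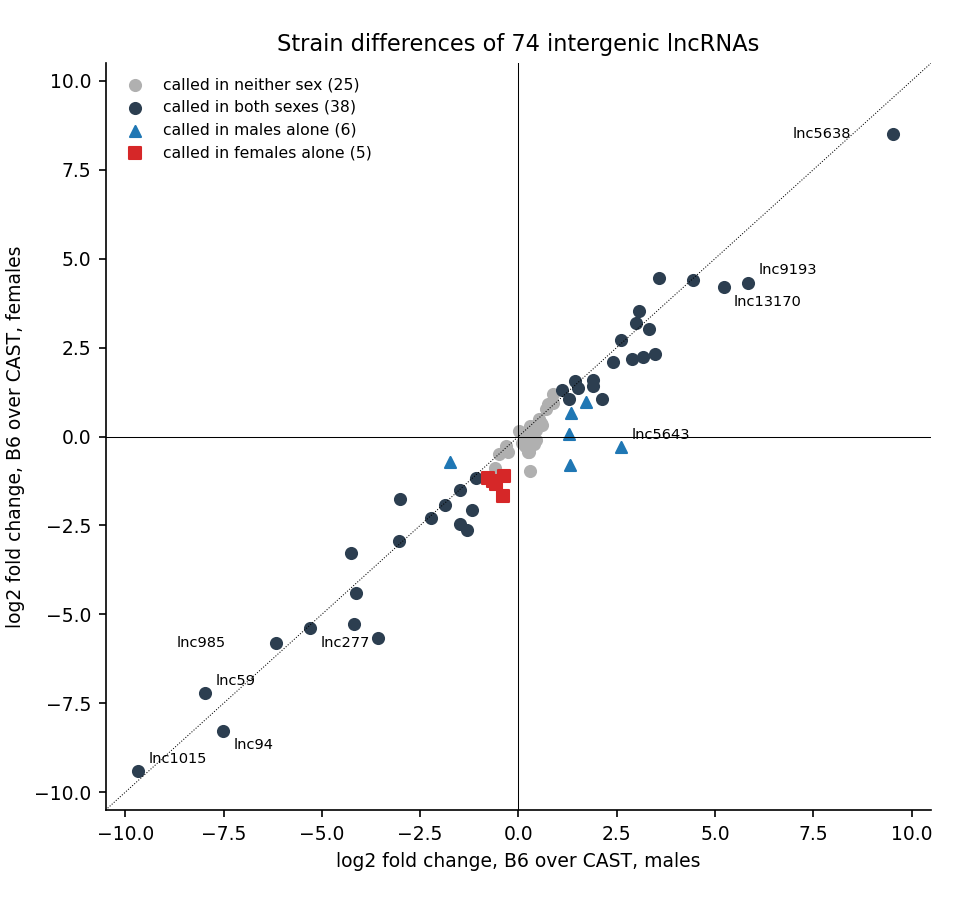
Fitted log2 fold change of B6 over CAST in males (horizontal axis) and in females (vertical axis) for the 74 intergenic lncRNAs tested, with symbols by the sex in which the difference was called and a dotted line of equality. The 38 genes called in both sexes lie in the lower left or the upper right, and lnc5643, called in males alone, has a log2 difference of 2.62 in males and -0.30 in females. For genes with no read in a strain, such as lnc1015, lnc59 and lnc94, the fitted value depends on the fit's prior count and is no estimate of the fold.

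Of the genes that were higher in CAST, 3 had no read in any of the 10 B6 livers, namely lnc1015, lnc59 and lnc94, all on chromosome 1. The FPKM of lnc1015 was 2.22, 2.16, 2.42, 1.92 and 0.975 in the CAST males and 1.13, 1.83, 1.55, 1.52 and 1.72 in the CAST females. These are 469 and 505 reads against 0, so every CAST liver was above every B6 liver. Where a group had no read, a lower bound of the fold was computed against a floor of 3 reads over the group, after scaling to library totals. On that basis CAST exceeded B6 at least 209-fold in males and at least 100.5-fold in females for lnc1015. For lnc94 the CAST males had 1.47, 0.958, 0.859, 0.445 and 0.646 FPKM and the CAST females 0.866, 1.88, 1.18, 1.61 and 1.41 FPKM, at least 44.9-fold and 45.0-fold higher than in B6. The FPKM of lnc59 was 0.652, 1.65, 0.765, 1.88 and 1.84 in CAST males and 0.729, 1.40, 0.492, 0.484 and 0.536 in CAST females, at least 61.8-fold and 23.7-fold higher. All 3 were called in both sexes, with edgeR adjusted p between 4.91e-12 and 4.15e-06. These bounds and the intervals below cover counting error alone.

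A further group of CAST-high genes had a few reads in B6. On chromosome 1, lnc985 was at 1.55, 1.30, 0.305, 0.594 and 1.21 FPKM in CAST males and at 1.04, 1.504, 0.890, 0.795 and 0.881 in CAST females, against 0 to 0.0585 FPKM in the 10 B6 livers. Its log2 difference of B6 over CAST was -6.16 (SE 0.52) in males and -5.81 (SE 0.52) in females, with edgeR adjusted p of 8.11e-11 and 2.65e-10. Also on chromosome 1, lnc277 was at 1.20, 0.763, 0.243, 1.14 and 1.97 FPKM in CAST males and at 0.935, 0.719, 2.02, 1.16 and 0.528 in CAST females. Its B6 livers held 4 reads in males and 3 in females in all, and the ratio of CAST to B6 females was 45.0 with a 95% exact Poisson interval of 15.2 to 219.7. In the shortest gene, lnc5104 on chromosome 6, CAST males had 54 reads against 3 in B6 males, a ratio of 24.02 with an interval of 7.79 to 120.1. The CAST livers had 0.900 to 1.596 FPKM of lnc5104 in males and 0.648 to 1.77 in females and lay above all B6 livers, whose highest value was 0.456.

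Higher counts stood behind lnc10595 on chromosome 12, which had 1781 reads in CAST males and 134 in B6 males. Its FPKM was 1.15, 1.22, 0.784, 1.37 and 1.00 in CAST males and 0.0771, 0.0568, 0.0348, 0.105 and 0.0326 in B6 males. The female livers were at 0.914, 0.844, 1.44, 0.436 and 0.602 FPKM in CAST and at 0.00354 to 0.107 in B6. Its log2 difference of B6 over CAST was -4.13 (SE 0.37) in males and -4.39 (SE 0.41) in females, with edgeR adjusted p of 3.11e-10 and 5.97e-10. The most variable of these genes between CAST livers was lnc4330 on chromosome 5, at 3.27, 0.939, 2.79, 1.96 and 0.645 FPKM in CAST males and 4.42, 0.413, 2.04, 0.630 and 1.01 in CAST females. In B6 its highest value was 0.455, in B6 male 2, and the other B6 livers were at 0.138 FPKM or below, so that B6 male 2 overlapped the lowest CAST female. Its log2 differences were -3.56 (SE 0.64) in males and -5.67 (SE 0.85) in females, with edgeR adjusted p of 4.39e-05 and 3.50e-06.

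Among the genes that were higher in B6, lnc5638 on chromosome 6 had 0 reads in the CAST males and 3 in the CAST females. It was at 0.702, 0.397, 1.24, 0.431 and 0.931 FPKM in B6 males and at 1.32, 1.59, 2.08, 1.53 and 2.66 in B6 females. The difference was at least 125-fold in males, and in females the ratio was 487 with an interval of 166 to 2366. Similar patterns were seen in genes that were left out of the fit because the CAST or B6 table does not list them. On chromosome 1, lnc45 was at 1.10, 1.13, 1.28, 1.13 and 1.14 FPKM in B6 males and at 0.949, 1.30, 1.39, 1.68 and 1.504 in B6 females, with 0 reads in CAST males and 1 in CAST females. It was at least 223-fold higher in B6 males, and the ratio in females was 1169 with an interval of 209 to 46252. The short gene lnc309, also on chromosome 1, was at 0.669 to 1.88 FPKM in B6 males and 0.724 to 1.09 in B6 females, with 1 read in CAST males and 0 in CAST females. In males its ratio was 61.4 with an interval of 10.7 to 2456, and in females the difference was at least 22.9-fold. The reverse held for lnc11094 on chromosome 13, at 0.584 to 2.01 FPKM in CAST males and 0.387 to 1.27 in CAST females with 1 read in B6 males and 0 in B6 females. Its ratio of CAST to B6 was 77.4 in males, with an interval of 13.4 to 3109.6, and it was at least 12.3-fold higher in CAST females. When these 3 genes entered the fit with the single read that their FPKM implies, 47 of 77 genes were called in males and 46 of 77 in females.

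Higher counts stood behind 2 long B6-high genes, with 9245 reads in B6 males for lnc9193 and 9134 for lnc13170. On chromosome 10, lnc9193 was at 2.31, 1.55, 1.31, 1.17 and 1.90 FPKM in B6 males and at 0.0434, 0.0357, 0.0167, 0.0160 and 0.0361 in CAST males. In females it was at 1.69, 1.75, 1.79, 1.51 and 2.14 FPKM in B6 and at 0.0647, 0.0636, 0.109, 0.124 and 0.0609 in CAST. The lowest B6 liver, at 1.17 FPKM, was far above the highest CAST liver, at 0.124 FPKM. The difference was 57.6-fold in males (log2 5.85, SE 0.26, edgeR adjusted p = 5.62e-17) and 19.98-fold in females (log2 4.32, SE 0.22, edgeR adjusted p = 1.60e-15). On chromosome 16, lnc13170 was at 4.81, 1.00, 2.43, 2.23 and 2.67 FPKM in B6 males, 0.483, 0.904, 0.752, 0.281 and 1.12 in B6 females, 0.0457 to 0.0871 in CAST males and 0.0206 to 0.0459 in CAST females. It had the largest coefficient of variation of the 77 genes, at 1.47, and its strain difference was 37.2-fold in males and 18.3-fold in females, with edgeR adjusted p of 2.16e-12 and 3.41e-10.

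The strains also did not overlap for lnc602 on chromosome 1, at 1.91, 2.13, 2.19, 2.27 and 2.31 FPKM in B6 males and 1.30, 1.34, 1.77, 1.22 and 1.01 in B6 females, against 0.0296 to 0.203 in the 10 CAST livers. Its log2 difference was 4.44 (SE 0.30) in males and 4.40 (SE 0.31) in females, with edgeR adjusted p of 4.32e-13 and 1.22e-12. The other B6-high genes named by size of difference were lnc3234, lnc3819 and lnc3651 on chromosome 4, lnc14182 on chromosome 17, lnc6743 on chromosome 8 and lnc7881 on chromosome 9. Their log2 differences lay between 2.25, for lnc3651 in females, and 4.46, for lnc3234 in females. The B6 livers of lnc6743 were at 0.725 to 1.65 FPKM and its CAST livers at 0.0441 to 0.188 FPKM, without overlap. For lnc7881 the ranges were 0.985 to 2.41 FPKM in B6 and 0.104 to 0.333 FPKM in CAST, and for lnc14182 they were 0.442 to 1.52 and 0.0539 to 0.132 FPKM. In all, the fitted difference exceeded 8-fold in at least 1 sex for 21 genes.

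Genes called in both sexes could still differ in size between them, and genes called in 1 sex alone are not thereby shown to differ between the sexes, which is the question of the interaction below. Of the 6 genes called in males alone, 4 had the same sign in females. The exceptions were lnc5643, with a log2 difference of 2.62 in males and -0.30 in females, and lnc14382, with 1.32 in males and -0.81 in females. The male call of lnc14382 was lost with counts thinned to the smallest library and with limma on log2(FPKM + 0.1). Of the 5 called in females alone, all 5 had the same sign in males, among them lnc9925 at -0.39 in males and -1.67 in females.

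Genes of several other cell types also differed between the strains. Of 5 Kupffer cell and macrophage markers 4 were found (*Clec4f*, *Cd68*, *Csf1r* and *Vsig4*), and all 4 were called higher in B6 in both sexes. Their summed level was 10.52 to 18.7 FPKM in B6 males, 24.1 to 28.3 in B6 females, 3.33 to 7.68 in CAST males and 5.07 to 15.99 in CAST females. Of 4 B-cell markers 2 were called higher in B6 in each sex, with sums of 0.417 to 0.692 FPKM in B6 males, 0.871 to 2.34 in B6 females, 0.0825 to 0.564 in CAST males and 0.189 to 0.601 in CAST females, and *Ms4a1* was at 0 in all CAST livers. Of 4 T and NK cell markers 2 were called higher in B6 in each sex and 1, *Cd8a*, was called higher in CAST males, with sums of at most 0.881 FPKM in B6 and 0.409 FPKM in CAST. Of 4 cholangiocyte markers, 3 of which were tested between strains, 2 were called higher in B6 males and 1 in B6 females, with sums of 1.08 to 3.25 FPKM in B6 males, 1.14 to 2.08 in B6 females, 0.586 to 0.831 in CAST males and 0.577 to 0.883 in CAST females, and *Krt7* was at 0 in all CAST livers.

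Of 3 erythroid markers *Hbb-b1* and *Hba-a1* were listed at 0 in every liver, and *Alas2* was at 26.9 to 36.5 FPKM in B6 males, 2.83 to 5.42 in B6 females, 1.78 to 3.25 in CAST males and 1.09 to 2.03 in CAST females and was called higher in B6 in both sexes. Of 3 markers of dividing cells 2 were called higher in B6 females, with sums of 0.182 to 3.25 FPKM there and 0.0594 to 0.479 in CAST females. Of 3 neutrophil markers found 1 was called higher in CAST females, with sums of 0.183 to 0.623 FPKM there and 0 to 0.689 in B6 females. Markers of hepatocytes, endothelial cells, stellate cells and adipocytes did not pass both thresholds of edgeR's test between the strains. Those that reached the adjusted p, such as *Cdh5* of endothelial cells at log2 0.79 in males and 0.61 in females, stayed under the fold threshold. Of the exocrine pancreas markers, *Pnlip* was tested between the strains and did not pass both thresholds, and *Cpa1* and *Ctrb1* were not tested. In bulk liver RNA, fewer cells of a type and less RNA per cell cannot be told apart. The part of these cell types in the strain differences of the lncRNAs was not tested.

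The share of genes with a strain call was set beside that of other classes of autosomal genes, as a description. Of the intergenic lncRNAs at 0.1 to 0.5 FPKM, 48.5% of 757 tested were called in males and 49.7% in females, and of those at 1 FPKM or more 64.9% of 74 in each sex. At the level of the 77 genes, 60.0% of 40 antisense lncRNAs, 42.9% of 14 intragenic lncRNAs and 34.8% of 1282 protein-coding genes were called in males, and 55.0%, 35.7% and 33.4% in females. Of the antisense lncRNAs called, 20 of 24 in males and 18 of 22 in females were higher in B6, and of the intergenic lncRNAs at 1 FPKM or more 18 of 48 were in each sex. For the intergenic lncRNAs at 0.1 to 0.5 FPKM these counts were 160 of 367 in males and 140 of 376 in females, for the protein-coding genes 244 of 446 and 250 of 428, and for the intragenic lncRNAs 2 of 6 and 2 of 5. The difference in direction between classes was not tested. Among the 77 genes, the 49 called in at least 1 sex had a median exonic length of 6595 nt and the 25 called in neither had a median of 3482 nt. The within-group coefficient of variation had a median of 0.373 in the former and 0.257 in the latter.

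**Figure D3:**
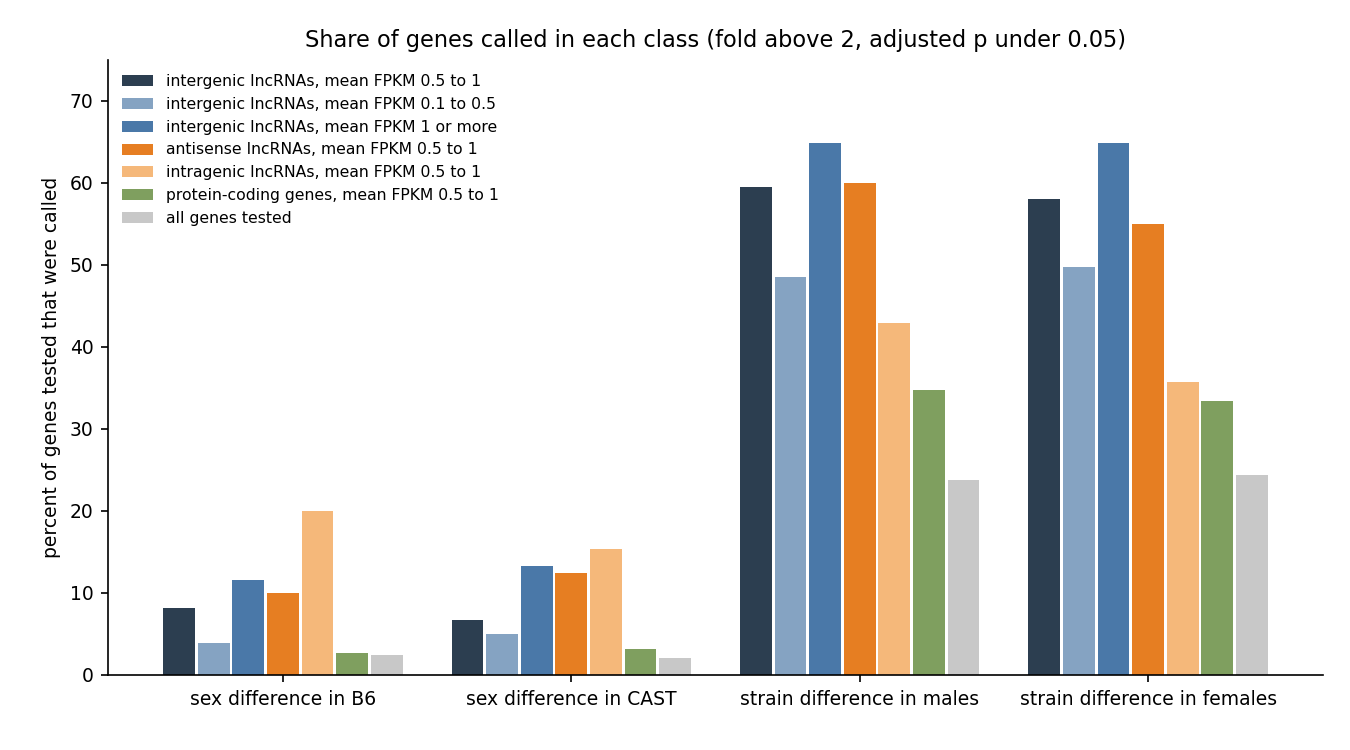
Share of the genes tested that were called (vertical axis, percent, from 0) in the sex difference of each strain and the strain difference of each sex. Bars stand for the 77 intergenic lncRNAs, other classes of autosomal genes by level, and all genes tested. The strain difference was called for 59.5% of the intergenic lncRNAs in males and 58.1% in females, and the sex difference for 8.22% in B6 and 6.67% in CAST.

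The comparison of males and females within each strain asked which of the genes are sex-biased. Few were. In B6, 6 of the 73 genes tested were called, which is 8.22% against 2.40% of all genes tested in B6 (1.16% male-biased and 1.24% female-biased). Of these, 5 were male-biased (lnc7606, lnc9925, lnc13170, lnc9511 and lnc8999) and lnc5638 was female-biased. In CAST, 5 of 75 genes were called, 6.67% against 2.05% of all genes tested there (0.882% male-biased and 1.17% female-biased), with lnc7606 and lnc9925 male-biased and lnc3651, lnc9193 and lnc14382 female-biased. The genes called in both strains were lnc7606 and lnc9925, where 0.832% of all genes listed in both were called in both. These shares are a description too, because the mean that chose the genes covers both sexes. For example, lnc13170 had a mean of 2.63 FPKM in B6 males and 0.707 FPKM or less in each other group. In a fit blocked by replicate number, 10 genes were called for sex in B6. The FPKM of males and females did not overlap for 11 of the 77 genes in B6 and 9 in CAST, where 7.51% and 6.43% of all genes had no overlap. An adjusted p under 0.05 without the fold threshold was reached by 12 genes in B6 and 10 in CAST, where 7.55% and 5.65% of all genes reached it. The log2 difference was above 0 in 53 of 73 genes in B6 with a median of 0.17, and in 39 of 75 in CAST with a median of 0.01, against medians of 0.02 and -0.01 over all genes.

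**Figure D4:**
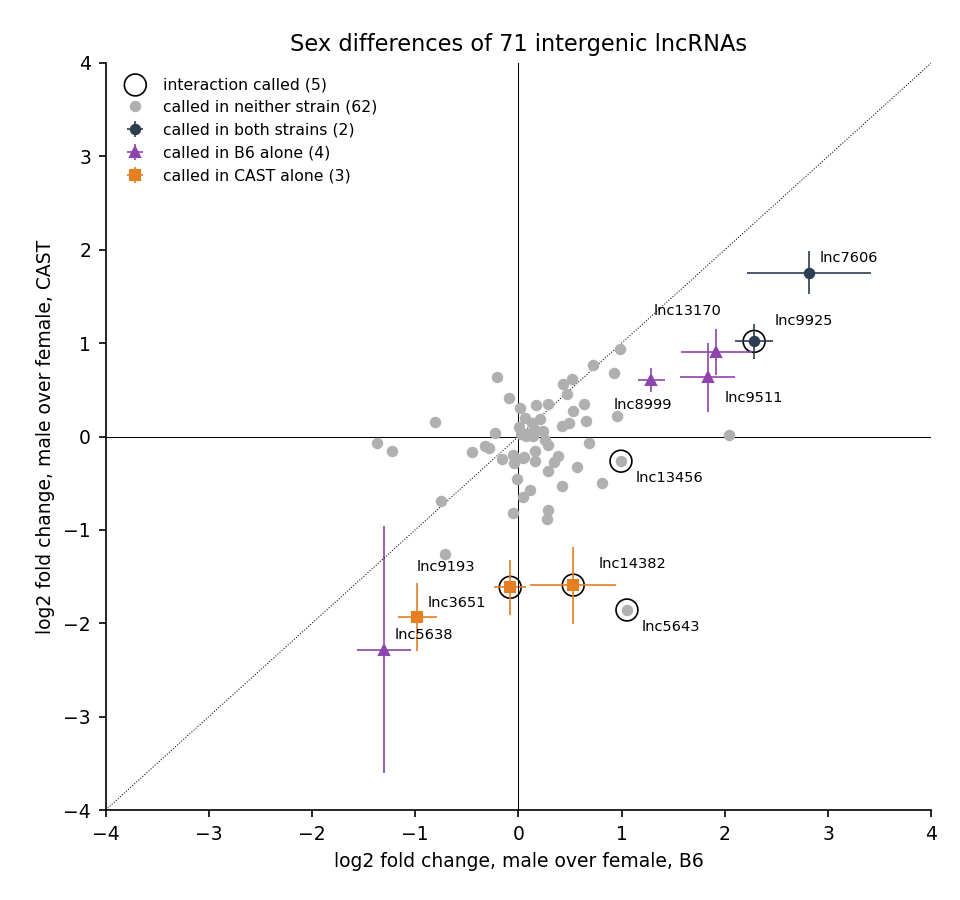
Fitted log2 fold change of males over females in B6 (horizontal axis) and CAST (vertical axis) for the 71 intergenic lncRNAs tested in both strains, with the standard error as bars on the called genes, black rings around the 5 genes with a called interaction and a dotted line of equality. The genes lnc7606 and lnc9925 lie at the upper right, male-biased in both strains, while lnc9193 and lnc14382 are female-biased in CAST and lie near 0 or above in B6.

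The male-biased gene lnc7606 on chromosome 8 was low in B6, at 0.0873, 0.122, 0.0576, 0.128 and 0.0359 FPKM in males and 0.0221, 0, 0.0130, 0.0117 and 0.0111 in females. In CAST it was at 1.14, 1.56, 2.14, 1.61 and 1.63 FPKM in males and 0.572, 0.270, 0.683, 0.263 and 0.465 in females. Males were above females in both strains without overlap, and every CAST liver was above every B6 liver. The difference between the sexes was 7.05-fold in B6 (log2 2.82, SE 0.60, edgeR adjusted p = 0.00636), which rests on 59 reads in males and 5 in females, and 3.37-fold in CAST (log2 1.75, SE 0.23, edgeR adjusted p = 5.49e-05). The B6 call was lost with limma on log2(FPKM + 0.1), where the log2 difference of 0.71 was under the fold threshold. The strain difference was 18.1-fold in males and 38.6-fold in females.

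On chromosome 11, lnc9925 was at 1.24, 0.956, 1.56, 0.911 and 0.968 FPKM in B6 males and 0.208, 0.156, 0.303, 0.217 and 0.293 in B6 females. In CAST males it was at 1.91, 2.04, 1.14, 1.17 and 1.252 FPKM and in CAST females at 1.01, 0.7102, 0.570, 0.704 and 0.467. Males were above females in each strain without overlap. The fold was 4.87 in B6 (log2 2.28, SE 0.18, edgeR adjusted p = 1.16e-07) and 2.03 in CAST (log2 1.02, SE 0.19, edgeR adjusted p = 0.00188). The CAST value lay at the fold threshold, and the call was lost without CAST male 1, CAST male 2, CAST female 3 or CAST female 5, and after thinning every library to the smallest. The strain difference was called in females alone, in which CAST was 3.17-fold higher.

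Of the genes male-biased in B6, lnc13170, whose FPKM in each B6 liver is given above, had its lowest male, at 1.00 FPKM, below its highest female, at 1.12 FPKM. The difference was 3.78-fold (log2 1.92, SE 0.35, edgeR adjusted p = 0.00174). In CAST it was 1.87-fold at far lower levels (log2 0.90, SE 0.25, edgeR adjusted p = 0.0354), under the fold threshold. On chromosome 11, lnc9511 was at 1.59, 2.34, 1.86, 2.54 and 1.42 FPKM in B6 males and 0.521, 1.04, 0.531, 0.405 and 0.256 in B6 females, without overlap. The CAST livers were at 1.27, 0.706, 1.07, 0.608 and 0.386 FPKM in males and 0.805, 0.472, 0.716, 0.170 and 0.123 in females, and these overlapped. Its log2 sex difference was 1.83 (SE 0.26, edgeR adjusted p = 0.000195) in B6 and 0.63 (SE 0.37, edgeR adjusted p = 0.385) in CAST.

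The most even of these genes within a group was lnc8999 on chromosome 10, at 1.77, 1.70, 1.87, 1.68 and 1.75 FPKM in B6 males, a mean of 1.76 ± 0.0751 (SD, n = 5). The B6 females were at 0.526, 0.675, 0.639, 0.817 and 0.988 FPKM, the CAST males at 0.803, 0.794, 0.614, 0.690 and 0.612 and the CAST females at 0.422, 0.484, 0.514, 0.326 and 0.426. The B6 males thus stood apart from all other livers, and the B6 females and CAST males overlapped. The sex difference was 2.44-fold in B6 (log2 1.29, SE 0.13, edgeR adjusted p = 3.58e-06) and 1.52-fold in CAST (log2 0.61, SE 0.13, edgeR adjusted p = 0.00758), under the fold threshold.

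The female-biased gene of B6, lnc5638, was at 0.397 to 1.24 FPKM in B6 males and 1.32 to 2.66 in B6 females, without overlap, a 2.47-fold difference (log2 -1.30, SE 0.26, edgeR adjusted p = 0.00419). With 0 reads in CAST males and 3 in CAST females its sex difference was not detectable in CAST at this depth. On chromosome 4, lnc3651 was at 0.0750, 0.0927, 0.0941, 0.0583 and 0 FPKM in CAST males and 0.181, 0.303, 0.278, 0.271 and 0.297 in CAST females, a 3.83-fold difference without overlap (log2 -1.94, SE 0.36, edgeR adjusted p = 0.00222). In B6 it was at 0.747, 0.528, 0.703, 0.435 and 0.894 FPKM in males and 1.36, 1.57, 1.36, 0.950 and 1.38 in females, also without overlap. That difference, 1.97-fold (log2 -0.98, SE 0.19, edgeR adjusted p = 0.00329), was just under the fold threshold.

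The other female-biased genes of CAST were lnc9193 and lnc14382. For lnc9193 the CAST females, at 0.0609 to 0.124 FPKM, were above the CAST males, at 0.0160 to 0.0434 FPKM, a 3.06-fold difference (log2 -1.62, SE 0.29, edgeR adjusted p = 0.00156). That call of lnc9193 was lost with limma on log2(FPKM + 0.1), where the log2 difference was -0.50, under the fold threshold. For lnc14382, a gene of 845 nt on chromosome 18, the CAST females were at 0.885, 1.01, 0.782, 0.598 and 0.639 FPKM and the CAST males at 0.148, 0.231, 0.270, 0.345 and 0.438, without overlap. Its difference of 3.01-fold (log2 -1.59, SE 0.41, edgeR adjusted p = 0.0259) rests on 17 reads in males and 78 in females, and the call was lost without CAST male 1, 2 or 3 or CAST female 1 or 2 and with thinned counts. Without CAST male 1 the number of genes called in CAST was 3 in place of 5.

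**Figure D5:**
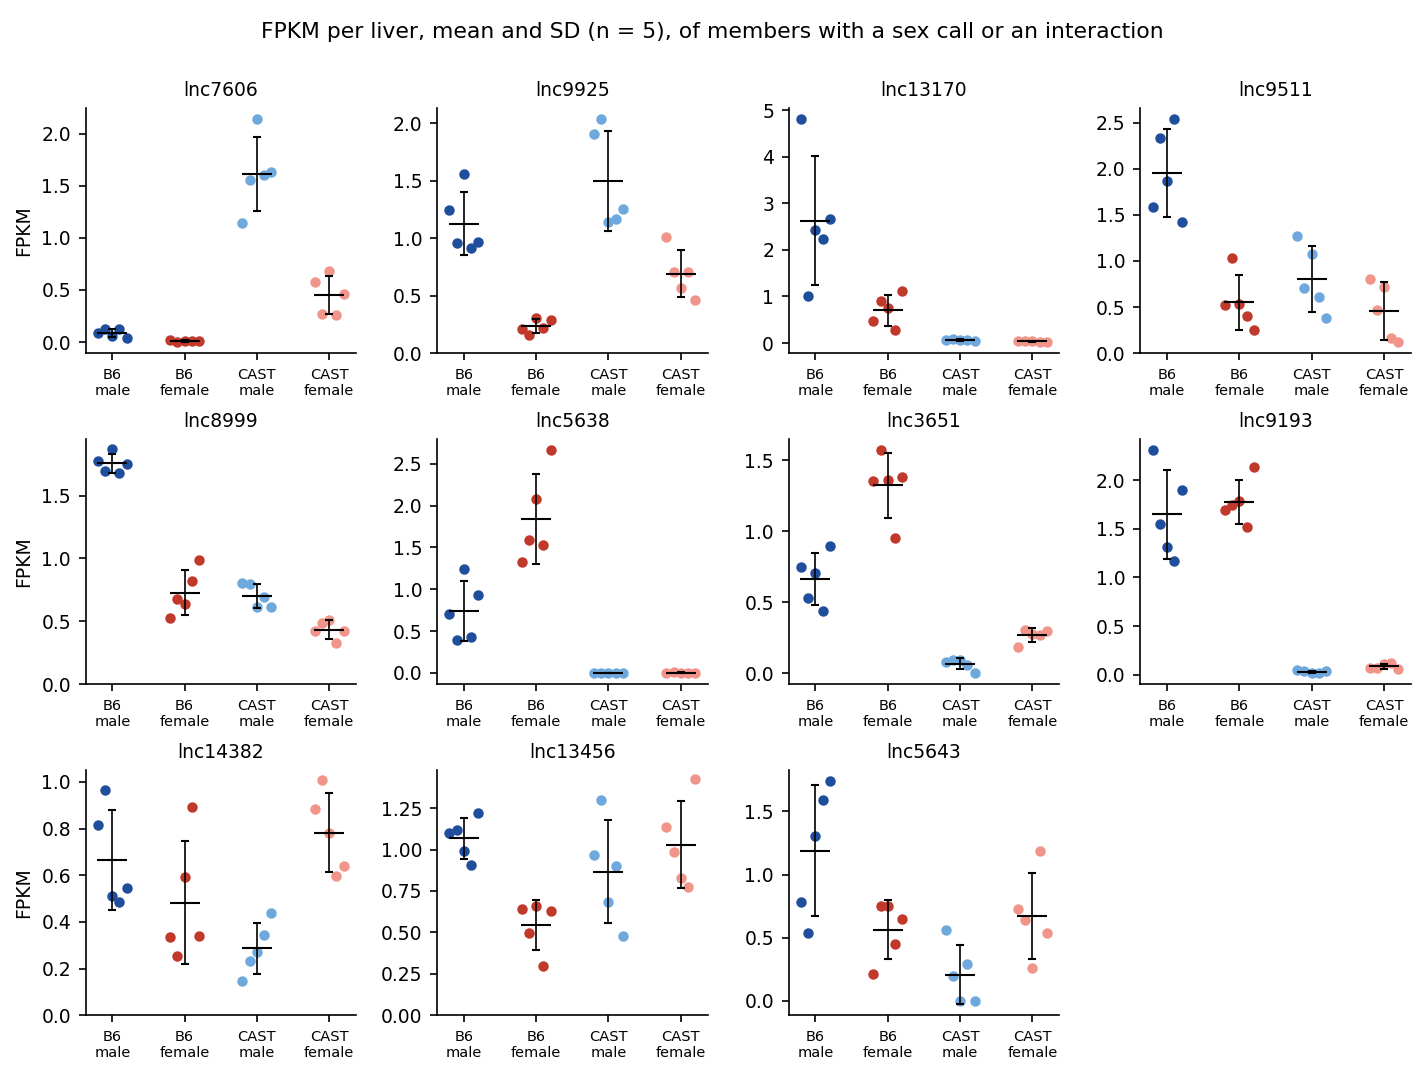
FPKM (vertical axis, own scale in each panel) in each liver of the 11 intergenic lncRNAs with a called sex difference or a called interaction of strain and sex. Points are livers, horizontal bars the mean and vertical bars the SD of 5 livers. For lnc8999 the 5 B6 males, at 1.68 to 1.87 FPKM, lie above all other livers, and for lnc5638 all CAST livers lie at or near 0.

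Some markers of other cell types moved with sex. In B6 the erythroid marker *Alas2* was called higher in males (log2 2.81, edgeR adjusted p = 2.70e-10), as was the cholangiocyte marker *Sox9* (log2 1.11, edgeR adjusted p = 0.00682), and the B-cell marker *Cd79b* was called higher in females (log2 -1.61, edgeR adjusted p = 0.0104). The summed Kupffer cell and macrophage markers of B6, given above, did not overlap between the sexes, with the higher values in females. All 4 of these markers were higher in B6 females at an edgeR adjusted p under 0.05, with log2 differences of -0.57 to -0.97 that lay under the fold threshold. The same held for the endothelial genes *Stab2* (log2 -0.54) and *Cdh5* (log2 -0.38) and the stellate cell genes *Lrat* (log2 -0.78) and *Dcn* (log2 -0.57). Of the hepatocyte genes, *Alb* was higher in B6 females (log2 -0.62) and *Apoa1* in B6 males (log2 0.51), also at an edgeR adjusted p under 0.05. In CAST the hepatocyte genes *Alb* and *Cps1* and the stellate cell gene *Lrat* were higher in females at an edgeR adjusted p under 0.05, with log2 differences of -0.60, -0.55 and -0.75, and no listed marker passed the fold threshold as well. The part of these cell types in the sex differences was not tested.

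As a description, the share with a sex call was 3.85% of 728 intergenic lncRNAs at 0.1 to 0.5 FPKM in B6 and 5.00% of 760 in CAST, and 11.6% of 69 and 13.3% of 75 of those at 1 FPKM or more. At the level of the 77 genes it was 4 and 5 of 40 antisense lncRNAs, 3 of 15 and 2 of 13 intragenic lncRNAs, and 2.67% of 1272 and 3.23% of 1269 protein-coding genes. The shares of the 77 genes rest on 6 and 5 calls.

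Whether the sex difference itself differed between the strains was tested as the interaction of strain and sex, the log2 difference of males over females in B6 minus that in CAST. It was called for 5 of 74 genes at an adjusted p under 0.05, which is 6.76% against 2.28% of all genes. This share is a description as well, since the mean over the same 4 groups chose the genes. In all 5 genes called, the male-over-female difference was higher in B6, where 1.44% of all genes were called in that direction. With limma on log2(FPKM + 1), 3 interactions were called in that direction and 2 in the other. The same counts came from limma on log2(FPKM + 0.1) with a minimum mean FPKM of 0.1. The value was 1.53 for lnc9193 (SE 0.34, edgeR adjusted p = 0.0129) and 1.28 for lnc9925 (SE 0.30, edgeR adjusted p = 0.0185). These genes differed in pattern: lnc9193 was female-biased in CAST and had a log2 sex difference of -0.08 (SE 0.16) in B6, whereas lnc9925 was male-biased in both strains and more so in B6. Both calls held when any 1 of the 20 livers was left out, but both were lost with limma on log2(FPKM + 0.1), where the value of lnc9193 was 0.37 (limma adjusted p = 0.513) and that of lnc9925 was 0.85 (limma adjusted p = 0.143). Of the 5 calls, the one kept there was that of lnc14382.

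The calls of the other 3 interactions were lost without single livers. On chromosome 16, lnc13456 was at 1.10, 1.12, 0.990, 0.904 and 1.22 FPKM in B6 males and 0.644, 0.497, 0.658, 0.297 and 0.628 in B6 females, without overlap. The CAST males, at 0.970, 1.30, 0.681, 0.899 and 0.479 FPKM, overlapped the CAST females, at 1.13, 0.985, 0.828, 0.776 and 1.42. Its interaction was 1.27 (SE 0.32, edgeR adjusted p = 0.0328) and was lost without B6 male 1 or 5, B6 female 4, CAST male 3, 4 or 5, or CAST female 1 or 2, and also with library size alone, thinned counts or limma on log2(FPKM + 0.1). Males and females of lnc14382 overlapped in B6, at 0.485 to 0.967 and 0.253 to 0.892 FPKM, and the interaction was 2.13 (SE 0.56, edgeR adjusted p = 0.0385). That call held without B6 male 3, 4 or 5, B6 female 4, CAST male 5 or CAST female 4 or 5 and was lost without each of the other 13 livers, and also with library size alone, with thinned counts and in the fit blocked by replicate number.

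The weakest was lnc5643, a gene of 669 nt on chromosome 6, at 0.780, 0.535, 1.30, 1.59 and 1.74 FPKM in B6 males, 0.214, 0.752, 0.755, 0.454 and 0.647 in B6 females, 0.561, 0.195, 0, 0.291 and 0 in CAST males and 0.731, 0.637, 0.264, 1.19 and 0.538 in CAST females. Males and females overlapped in both strains. The interaction of 2.92 (SE 0.79, edgeR adjusted p = 0.0457) rests on 9 reads in CAST males and 25 in B6 females, and it was lost without each of 15 livers, the exceptions being B6 male 2, B6 female 2, CAST male 1, CAST female 3 and CAST female 5. It was lost too in the blocked fit and with thinned counts, library size alone, DESeq2 size factors in edgeR and limma on log2(FPKM + 0.1). The number of interactions called was 2 without B6 male 1, CAST male 3, CAST male 4, CAST female 1 or CAST female 2, and 3 without B6 male 5, B6 female 1, B6 female 3, B6 female 4 or CAST male 5.

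At the other end, 25 of the 74 genes were called between strains in neither sex. The genes with the smallest coefficient of variation over the 20 livers were lnc13470 at 0.172, lnc4022 at 0.174 and lnc3683 at 0.176. On chromosome 16, lnc13470 was at 0.497 to 0.659 FPKM in B6 males, 0.418 to 0.686 in B6 females, 0.354 to 0.688 in CAST males and 0.436 to 0.530 in CAST females, so that all 4 groups overlapped. The longest gene, lnc4022 on chromosome 5, had means of 0.568 ± 0.0629 and 0.568 ± 0.0887 FPKM in male and female B6 livers and of 0.470 ± 0.0819 and 0.437 ± 0.0433 FPKM in male and female CAST livers (SD, n = 5 each). Its log2 strain difference was 0.31 (SE 0.12) in males and 0.29 (SE 0.12) in females. On chromosome 4, lnc3683 was at 0.525 to 1.14 FPKM over all livers, with log2 strain differences of 0.10 (SE 0.17) and -0.18 (SE 0.16) and log2 sex differences of 0.05 (SE 0.15) in B6 and -0.22 (SE 0.16) in CAST.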

How the data were processed

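PolyA-selected RNA of 20 livers, 5 per strain and sex, was sequenced from a directional library kit. The authors mapped reads with TopHat, B6 reads to mm9 and CAST reads to a genome built from mm9 and CAST variants, kept reads with 1 mapping position and assigned them to exons with featureCounts. Whether counting used strand is not given in the sources used here, so overlapping genes are uncertain. The deposited counts are whole numbers of reads, not normalized by the authors, and each strain has a table of its own, whose genes have at least 2 reads. The FPKM values that the authors deposited cover all 20 livers. Columns of the authors' own sex comparison (fold changes and p-values) and 24 columns of scaled counts or group medians were not used.

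Sex differences were tested in each strain by the quasi-likelihood F test of edgeR 4.0.16 (R 4.3.3), after TMM normalization and with Benjamini-Hochberg adjusted p (over 25690 genes in B6 and 24722 in CAST). Strain differences and the interaction came from 1 joint model of all 4 groups (25779 genes). Genes that a strain's table does not list entered with 0 reads where their FPKM was 0 in that strain, and 2028 genes with FPKM above 0 in 1 of its livers were left out, among them lnc45, lnc309 and lnc11094. Of the 77 genes, 73 were tested for sex in B6, 75 in CAST and 74 between strains. Standard errors were taken as the log2 fold change over the square root of F. Total reads of 7969482 to 35328573 per liver set the precision. Bounds used a floor of 3 reads over a group, and ratios an exact 95% interval. The tests were also run on simulated counts with known changes, whose outcome is not given here.

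The genes, the comparison classes and the marker lists (hepatocyte, Kupffer cell and macrophage, T and NK cell, B cell, neutrophil, endothelial cell, stellate cell, cholangiocyte, erythroid cell, exocrine pancreas, adipocyte and dividing cell) were chosen with earlier results of these data known. The genes named are those called for sex in both strains, up to 6 per direction called for sex in a strain, all called interactions, the 8 largest strain differences per sex and direction, the 3 smallest and 3 largest coefficients of variation, and the 2 on either side of each level bound. Members of runs of 3 consecutive numbers would also have been named, and 0 were found. Genes that the table leaves out of the fit were named after their values were seen. Alternatives were edgeR with library size alone, with DESeq2 size factors, after filterByExpr or after thinning every library to the smallest, DESeq2 1.42.0 itself, limma 3.58.1 on log2(FPKM + 0.1), with or without a minimum mean FPKM of 0.1, and on log2(FPKM + 1), edgeR's exact test for sex, a block for the replicate number, no fold threshold (or one added for the interaction), choice of genes by the median FPKM, and each liver left out. After the data were seen, adding the single reads of genes left out was tried. Python 3.11.15 (pandas 2.3.3, numpy 2.4.6, scipy 1.17.1, matplotlib 3.10.9) was used for the rest.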

Additional observations from a re-analysis of the deposited data

Results flagged for a closer look

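In 9 of 116 sets of 5 livers (29 named genes in 4 groups), 1 liver stood apart from the other 4 by Dixon's 95% criterion. Chance alone gives this in about 1 of 20 sets of normally distributed values. That rate is no reference here, because some sets were at 0 in all 5 livers and some genes were named for their large variation. CAST female 2 had 1.40 FPKM of lnc59 where the others had 0.484 to 0.729. B6 female 4 had 0.122 FPKM of lnc277 where the others had 0, and 0.0585 FPKM of lnc985 where the others had 0 to 0.0111. CAST female 1 was lowest for lnc3651, at 0.181 FPKM against 0.271 to 0.303. B6 male 2 had 0.455 FPKM of lnc4330 against 0.0227 to 0.138. For lnc5104, B6 male 4 had 0.319 FPKM where the others had 0, and B6 female 3 had 0.456 FPKM against 0 to 0.130. For lnc7696, B6 female 3 was lowest at 0.0633 FPKM against 0.242 to 0.297, and CAST female 3 was highest at 2.002 FPKM against 0.597 to 0.946.

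The sex difference of 5 genes differed between the strains by the interaction test. The log2 difference of males over females in B6 minus that in CAST was 2.92 for lnc5643, 1.53 for lnc9193, 1.28 for lnc9925, 1.27 for lnc13456 and 2.13 for lnc14382.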

How the results depend on the processing

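Of 61 calls of the 26 named genes, 50 were tested and held in every alternative other than limma on log2(FPKM + 1), with which 41 were lost. The genes of 4 calls were removed by filterByExpr and had no test there (lnc7606 for sex in B6, lnc14382 for sex in CAST, and lnc5643 for strain in males and the interaction). A pseudocount of 1 is above the mean level of all 77 genes and shrinks their fold changes by construction. With it 1 gene was called for sex in B6, 0 in CAST (18 at an unadjusted p under 0.05), 14 between strains in males and 10 in females, and the value for lnc9193, interaction of strain and sex, turned to -0.00698 on the log2 scale. Without a fold threshold 12 genes were called for sex in B6 and 10 in CAST. With counts thinned to the smallest library 3 were called for sex in CAST and 2 interactions, while 7 were called for sex in B6. Interactions numbered 2 with library size alone, 8 with DESeq2 and 1 with limma on log2(FPKM + 0.1). The cause was not tested. Leaving out 1 liver gave 6 to 8 sex calls in B6, 3 to 5 in CAST, 42 to 45 strain calls in males, 41 to 45 in females and 2 to 7 interactions. With a replicate block 10 genes were called for sex in B6 and 2 of the 61 calls were lost, the interactions of lnc5643 and lnc14382. Same-numbered livers correlated by 0.115 on average between CAST males and females and by 0.0379 between B6 males and females, over 12634 genes, and 3 of 5 and 1 of 5 correlated best with their own number, so the numbers were not taken to pair the livers. Other alternatives left each count within 1.5 times its value.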

Other observations

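Several of the 77 genes have a neighbour in lncRNA numbering with a like pattern. Others have a neighbour with the opposite pattern, and many neighbours were at or near 0 FPKM. How often neighbouring lncRNAs share a pattern was not tested. The numbers run in blocks by chromosome, the distance between neighbouring genes is not given in the sources used here, and these pairs were picked after their values were seen. On chromosome 1, lnc276, next to lnc277, had mean FPKM of 5.80 in male and 5.73 in female CAST livers, and 0 in every B6 liver. On the other side, lnc278 went the opposite way, with 0.824 FPKM in B6 males, 0.263 in B6 females and 0 in CAST. The neighbour of lnc59, lnc60, had 0.859 and 0.840 FPKM in CAST males and females and 0 in B6. Beside lnc1015, lnc1016 had 0.229 and 0.196 FPKM in CAST and 0 in B6, while lnc1014 on the other side had 0 in CAST and 0.00353 and 0.00750 FPKM in B6.

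On chromosome 5, lnc4329, next to lnc4330, had mean FPKM of 3.30 in CAST males and 1.83 in CAST females, against 0.136 and 0.0276 in B6. On chromosome 8, lnc6742, next to lnc6743, was higher in B6, at 0.135 and 0.148 FPKM against 0.0170 and 0.00654 in CAST. Next to the male-biased gene lnc9511, lnc9512 had 0.233 and 0.0571 FPKM in male and female B6 livers and 0.0363 and 0.00334 FPKM in male and female CAST livers. By contrast lnc7605, next to lnc7606, was higher in B6, at 0.0771 and 0.0722 FPKM against 0.00615 and 0, where lnc7606 was higher in CAST. Beside the CAST-high genes lnc985 and lnc4330, lnc986 had 0.0171 and 0.0471 FPKM and lnc4331 had 0.0216 and 0.0126 FPKM in male and female B6 livers. Both were at 0 in CAST. Beside the B6-high gene lnc5638, lnc5639 had 0.0533 and 0.0694 FPKM in male and female CAST livers and 0 in B6.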
